A study of Mus musculus with 6 samples.

Results

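The MAPK feedback phosphatases and Sprouty genes are genes whose products hold back the RAS to ERK signalling cascade, together with an ETS factor that the cascade induces. The members were chosen by symbol: Dusp1, Dusp2, Dusp4, Dusp5, Dusp6, Spry1, Spry2, Spred1, Spred2 and Etv5. All 10 were found among the 43629 gene IDs of the count table, and all 10 passed the filter on low counts that left 15432 tested genes. The RNA came from C57BL/6 mice that had reached the leukaemia end point: their frozen bone marrow was thawed and sorted for c-kit+ cells. Replicates 7, 9 and 11 were Gata2+/f, with 1 Gata2 allele of the kind labelled f, and replicates 3, 5 and 6 were Gata2+/+. Both groups were Cbfb-MYH11 knockin mice, a model of the fusion found in human acute myeloid leukaemia with an inverted chromosome 16. The labels used here give no age, no agent and no account of what the f allele is or how it was acted on. They do not say that each library came from a separate mouse, so p-values measure the spread between these libraries, which may in part be technical.

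Growth factor receptors such as Kit switch on RAS, which drives the kinases RAF, MEK and ERK. Active ERK induces genes that shut it off again. The dual specificity phosphatases (DUSPs) remove phosphate from both the threonine and the tyrosine of MAP kinases: DUSP6 and the nuclear DUSP5 act mainly on ERK, and DUSP1, DUSP2 and DUSP4 are nuclear enzymes that also act on JNK or p38. Sprouty and SPRED proteins act higher up, between receptor and RAF, and SPRED1 does so by bringing neurofibromin to RAS. ETV5 is an ETS transcription factor whose gene is a common readout of ERK output. In blood progenitors and mast cells this cascade carries the growth signal of Kit.

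The starts of 4 members are shown, because Dusp1 and Dusp5 hold the rarer of the motifs found and Dusp6 and Spry2, which lay on opposite sides in the comparison, hold none of the motifs searched. RefSeq's table for GRCm38.p6 matched 9 of the 10 members, with 2 windows for Etv5. Each sequence is the 250 bases before the start annotated by RefSeq, 5′ to 3′ on the gene's strand, with every motif match in capitals. They lie at chr17:26508473-26508722 (minus strand) for Dusp1, chr19:53528895-53529144 (plus strand) for Dusp5, chr10:99262981-99263230 (plus strand) for Dusp6 and chr14:105896820-105897069 (minus strand) for Spry2. Gene positions given below are from GENCODE M21, whose starts can differ from those of RefSeq. The Dusp1 window lies within the GENCODE gene (26505590 to 26562128), and the Dusp5 window runs past the GENCODE start at 53529109.
Dusp1: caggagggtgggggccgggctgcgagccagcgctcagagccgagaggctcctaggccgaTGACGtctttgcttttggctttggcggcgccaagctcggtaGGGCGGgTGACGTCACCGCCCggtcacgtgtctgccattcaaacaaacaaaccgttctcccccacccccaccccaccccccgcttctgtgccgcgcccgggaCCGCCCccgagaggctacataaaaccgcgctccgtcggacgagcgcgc
Dusp5: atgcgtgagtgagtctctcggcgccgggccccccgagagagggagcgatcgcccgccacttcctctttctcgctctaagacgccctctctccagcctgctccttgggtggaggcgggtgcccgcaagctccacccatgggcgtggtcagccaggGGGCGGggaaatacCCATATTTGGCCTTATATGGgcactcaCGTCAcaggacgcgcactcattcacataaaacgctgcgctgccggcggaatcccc
Dusp6: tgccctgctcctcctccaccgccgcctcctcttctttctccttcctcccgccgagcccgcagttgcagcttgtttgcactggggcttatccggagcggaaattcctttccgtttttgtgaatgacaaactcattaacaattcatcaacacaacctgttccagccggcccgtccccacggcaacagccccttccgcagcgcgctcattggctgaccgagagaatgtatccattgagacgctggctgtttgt
Spry2: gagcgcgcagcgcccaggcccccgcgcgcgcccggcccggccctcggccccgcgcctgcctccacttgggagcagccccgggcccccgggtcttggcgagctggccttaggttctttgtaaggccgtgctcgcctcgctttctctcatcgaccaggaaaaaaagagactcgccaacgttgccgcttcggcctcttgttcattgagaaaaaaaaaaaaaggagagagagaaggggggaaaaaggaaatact

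Both strands were searched for the letters of known motifs. For GATA factors these were AGATAA, and for the cAMP response element TGACG and the full TGACGTCA, which contains the shorter motif on each strand. Those of the factor AP-1 were TGANTCA, where N is any base. The ETS motif was written CCGGAA and the motif of the EGR proteins GCGTGGGCG. GGGCGG stood for SP factors, TATAAA for the TATA box, and the CArG box of serum response factor was searched by its usual form. Dusp1 held TGACGTCA, found in 1.55% of 32851 promoter windows of the same length. It lay 143 to 136 bases before the start, with a further TGACG 191 to 187 bases before it. Dusp5 held 2 CArG boxes side by side, CCATATTTGG from 82 to 73 and CCTTATATGG from 72 to 63 bases before the start, a motif present in 1.47% of windows. TGACG occurred in Dusp1, Dusp5 and Spred2 and in 17.8% of all windows. GGGCGG, the commonest at 32.7% of windows, occurred in Dusp1, Dusp2, Dusp5, Spry1, Spred1, Spred2 and 1 of the Etv5 windows. None of the members' windows held AGATAA, present in 9.99% of all windows. The same was true of TGANTCA (6.75% of windows), the ETS letters (12%), the EGR letters (0.536%) and TATAAA (12.4%). A match is a run of letters in this window and was not tested as a binding site, and no match says only that these letters are not in the window.

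Gata2, the gene that separates the groups, had 498, 273 and 264 CPM (counts scaled to library size) in Gata2+/f replicates 7, 9 and 11, against 886, 887 and 737 CPM in Gata2+/+ replicates 3, 5 and 6. The groups did not overlap (log2 fold change -1.28, SE 0.32; edgeR adjusted p = 0.109). Libraries held 53789568 to 67854631 counts in Gata2+/f and 56986464 to 67046503 counts in Gata2+/+. Markers of some other cell types differed between the groups. All 8 mast cell markers had negative log2 fold changes, with a summed level of 860 to 3570 CPM in Gata2+/f and 8922 to 10994 CPM in Gata2+/+. Of these Tpsb2, a mast cell tryptase, was at 0 in Gata2+/f replicates 7 and 9 and at 1 count in replicate 11, against 16, 892 and 161 counts in Gata2+/+ replicates 3, 5 and 6. All 10 late neutrophil markers had positive log2 fold changes, with sums of 3667 to 7316 CPM in Gata2+/f and 132 to 370 CPM in Gata2+/+. All 8 monocyte markers did too, with sums of 1132 to 2609 CPM in Gata2+/f and 284 to 800 CPM in Gata2+/+. The other marker lists had mixed signs or low sums. Erythroid markers had 4 positive and 3 negative log2 fold changes, megakaryocyte markers 2 and 2, and stromal and endothelial markers 1 and 2. Megakaryocyte sums were still 21.2 to 124 CPM in Gata2+/f and 496 to 649 CPM in Gata2+/+, mostly from Itga2b (log2 fold change -2.98). Stromal and endothelial sums were 46.7 to 118 CPM in Gata2+/f and 32.8 to 43.1 CPM in Gata2+/+, with Pecam1 higher in each Gata2+/f library. Early granulocyte and progenitor markers had 4 positive log2 fold changes (Mpo, Elane, Prtn3 and Ctsg) and 2 negative ones (Kit and Cd34). The 4 tested B cell and 4 tested T cell markers were positive, with sums of at most 23.7 CPM in any library. Single libraries also differed within a group. The early granulocyte and progenitor markers summed to 11702 CPM in Gata2+/f replicate 9, against 2472 and 3030 CPM in replicates 7 and 11. Their sums were 1783 to 4527 CPM in Gata2+/+. In bulk RNA, fewer cells of a type and less RNA per cell cannot be told apart, and the part of this cell makeup in the members' values was not tested.

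In leukaemic Gata2+/f cells, 7 of the 10 members had lower and 3 had higher fitted levels than in Gata2+/+ cells, and none passed the test after adjustment. Over all genes tested, 48.9% had lower and 51.1% higher fitted levels. Dusp1, Spry1 and Spry2 were lower in each Gata2+/f library than in any Gata2+/+ library. Dusp2, Dusp6 and Etv5 had higher means in Gata2+/f, with overlapping groups. The median log2 fold change of the members was -0.58, against 0.019 over all genes tested. By edgeR's quasi-likelihood test with Benjamini-Hochberg adjustment over all genes, 0 of 10 members were called at adjusted p under 0.05, as were 0% of all genes. DESeq2 also called 0 members, where it called 12.7% of genes (6.58% higher, 6.09% lower), and so did limma voom (0.0583% of genes) and the newer form of edgeR's test (0.207%).

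At an unadjusted p under 0.05 there were 2 higher members, Dusp2 and Etv5, beside 11.1% of all genes, and 1 lower member, Spry2, beside 11.5%. The groups did not overlap for 3 lower members, beside 16.6% of all genes, and for 0 higher members, beside 13.1% (29.7% in either direction). With 10 members these shares are near the background or 1 to 2 genes from it, and are not read as a property of the set. The plot of CPM by library shows the values behind these counts.

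**Figure D1:**
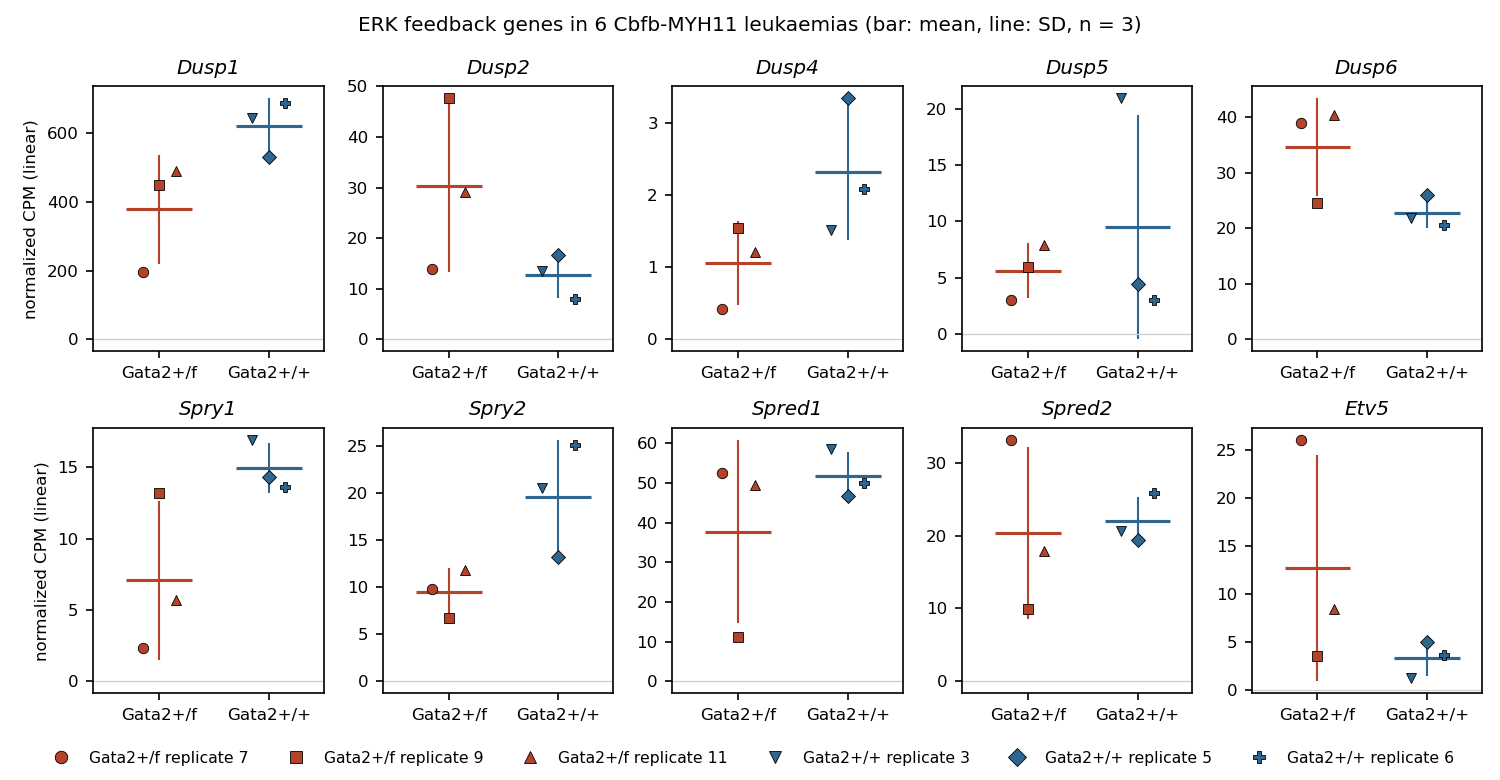
Normalized CPM (linear axes) of the 10 members in each library, Gata2+/f on the left and Gata2+/+ on the right of each panel; bars are means and lines are SD (n = 3 each). Dusp1, Spry1 and Spry2 do not overlap between the groups, whereas single libraries stand apart for Dusp5 (21 CPM in Gata2+/+ replicate 3), Spred1 (11.2 CPM in Gata2+/f replicate 9) and Etv5 (26 CPM in Gata2+/f replicate 7).

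Dusp1, an immediate early phosphatase of MAP kinases, had by far the highest level per length of the members in both groups. It had 196, 448 and 490 CPM in Gata2+/f replicates 7, 9 and 11, against 643, 530 and 688 CPM in Gata2+/+ replicates 3, 5 and 6. The groups did not overlap, and Gata2+/f replicate 7 lay well below the rest. The log2 fold change was -0.71 (95% interval -1.56 to 0.14; SE 0.37; edgeR adjusted p = 0.282), and -0.36 without Gata2+/f replicate 7. The annotated gene (chromosome 17, 26505590 to 26562128, minus strand, GRCm38) overlaps Ergic1 on the other strand. The strand setting of the counting is not given in the sources used here, so reads of the pair may not be separated. Ergic1 had 47.3 to 68.3 CPM in Gata2+/f and 43.7 to 64.2 CPM in Gata2+/+. In Gata2+/f replicate 7, the library with the lowest Dusp1, Ergic1 was at 68.3 CPM.

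Dusp2, a nuclear phosphatase best known from activated immune cells (chromosome 2, 127336159 to 127338376), tended the other way. Its values were 13.9, 47.7 and 29.1 CPM in Gata2+/f replicates 7, 9 and 11, against 13.6, 16.7 and 7.9 CPM in Gata2+/+ replicates 3, 5 and 6. Gata2+/f replicates 9 and 11 were the highest, while Gata2+/f replicate 7 lay within the Gata2+/+ range. The fitted difference was 2.38-fold (log2 fold change 1.25, SE 0.49; 95% interval 0.11 to 2.39; edgeR adjusted p = 0.197), and the log2 value was 0.81 without Gata2+/f replicate 9.

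Dusp6, the cytoplasmic phosphatase that acts on ERK (chromosome 10, 99263231 to 99267489), had the smallest SD of log2 CPM of the members within Gata2+/f (0.40, against 0.17 within Gata2+/+). Gata2+/f replicates 7, 9 and 11 had 39, 24.5 and 40.5 CPM, against 21.9, 26 and 20.7 CPM in Gata2+/+ replicates 3, 5 and 6. Gata2+/f replicates 7 and 11 lay above all Gata2+/+ libraries, and replicate 9 lay among them. The log2 fold change was 0.60 (95% interval -0.05 to 1.24; SE 0.28; edgeR adjusted p = 0.247). With 1 library left out it lay between 0.51 and 0.85.

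Dusp5, the nuclear phosphatase of ERK (chromosome 19, 53529109 to 53542431), turned on 1 library. Gata2+/f had 2.99, 5.97 and 7.88 CPM in replicates 7, 9 and 11. Gata2+/+ replicate 3 had 21 CPM, and Gata2+/+ replicates 5 and 6 had 4.46 and 3.01 CPM. The log2 fold change was -0.76 (SE 0.77; edgeR adjusted p = 0.58) and turned to 0.63 without Gata2+/+ replicate 3. Dusp4 (chromosome 8, 34807297 to 34819894) was the lowest of the 5 phosphatases per length. It had 30, 93 and 81 counts in Gata2+/f replicates 7, 9 and 11 and 76, 197 and 134 counts in Gata2+/+ replicates 3, 5 and 6. This was 0.424 to 1.55 CPM in Gata2+/f and 1.52 to 3.35 CPM in Gata2+/+, and the groups overlapped by a narrow margin (log2 fold change -1.13, SE 0.61; edgeR adjusted p = 0.307). The 506 genes of chromosome 8 with a mean log2 CPM of at least 3 had a median of 0.44 in Gata2+/f replicate 7. This is in log2 CPM relative to the gene's own mean of the libraries. Dusp4 itself, which is below that level, was at -1.68 there.

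Spry1 and Spry2, the 2 Sprouty members, had similar fitted differences but different spreads. Spry2 (chromosome 14, 105891947 to 105896819) had 9.85, 6.67 and 11.8 CPM in Gata2+/f replicates 7, 9 and 11, against 20.5, 13.2 and 25.1 CPM in Gata2+/+ replicates 3, 5 and 6. The groups did not overlap, with the nearest pair at 11.8 and 13.2 CPM. Its log2 fold change was -1.06 (95% interval -1.92 to -0.19; SE 0.37), the lowest p of the members (unadjusted 0.0227; edgeR adjusted p = 0.17; DESeq2 adjusted p = 0.0674). The 314 genes of chromosome 14 with a mean log2 CPM of at least 3 had a median of 0.23 in Gata2+/+ replicate 6, on the same relative log2 scale. That was the library with the highest Spry2. Without that library the log2 fold change of Spry2 was -0.79.

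Spry1 (chromosome 3, 37639947 to 37644598) had 2.31, 13.2 and 5.69 CPM in Gata2+/f replicates 7, 9 and 11, against 16.9, 14.3 and 13.6 CPM in Gata2+/+ replicates 3, 5 and 6. The groups did not overlap, but Gata2+/f replicate 9 was only just below the lowest Gata2+/+ library, and the groups overlapped with upper quartile scaling or a filter of 1 CPM in 3 libraries. They also overlapped when the fit left out Gata2+/f replicate 7, Gata2+/f replicate 11 or Gata2+/+ replicate 3. The SD of log2 CPM was 1.26 within Gata2+/f and 0.16 within Gata2+/+. The log2 fold change was -1.08 (95% interval -2.46 to 0.30; SE 0.59; edgeR adjusted p = 0.314). Leaving out Gata2+/f replicate 9 gave -1.84, and leaving out replicate 7 gave -0.62.

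Spred1 and Spred2, whose products block activation of RAF by RAS, had small fitted differences and were lowest in the same library, Gata2+/f replicate 9. Spred1 (chromosome 2, 117121374 to 117182279) had 52.6, 11.2 and 49.5 CPM in Gata2+/f replicates 7, 9 and 11, against 58.6, 46.7 and 50 CPM in Gata2+/+ replicates 3, 5 and 6. Apart from Gata2+/f replicate 9, its 5 values lay between 46.7 and 58.6 CPM. The log2 fold change was -0.45 (95% interval -1.66 to 0.75; SE 0.52; edgeR adjusted p = 0.623), and 0.03 without that library. Spred2 (chromosome 11, 19924375 to 20024026) had 33.1, 9.88 and 17.9 CPM in Gata2+/f replicates 7, 9 and 11, against 20.6, 19.4 and 25.8 CPM in Gata2+/+ replicates 3, 5 and 6. Gata2+/f thus held both the highest and the lowest library. The fitted log2 fold change was -0.11 (95% interval -1.13 to 0.91; SE 0.44; edgeR adjusted p = 0.901). It turned to 0.27 without Gata2+/f replicate 9, 0.02 without Gata2+/f replicate 11 and 0.06 without Gata2+/+ replicate 6.

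Gata2+/f replicate 9 was also low in long genes. Where mean log2 CPM was at least 3, the 3093 genes with 6 kb or more of merged exons had a median of -0.40 there. The 1109 genes under 2 kb had a median of 0.32, both in log2 CPM relative to the gene's own mean of the 6 libraries. In the other 5 libraries the long genes lay between -0.04 and 0.20. On this scale Spred1 (6784 bases of merged exons) was at -1.83 in that library, Spred2 (4619 bases) at -1.0 and Etv5 (4103 bases) at -0.52. The short Spry2 (2087 bases) was about as low as Spred2, at -0.98, whereas the short Dusp2 (2003 bases) was at 1.40. The part of transcript length in these values was not tested.

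Etv5 (chromosome 16, 22381309 to 22439719) had the largest SD of log2 CPM of the members within Gata2+/f (1.44, against 1.07 within Gata2+/+). It had 26, 3.54 and 8.44 CPM in Gata2+/f replicates 7, 9 and 11, against 1.22, 4.99 and 3.63 CPM in Gata2+/+ replicates 3, 5 and 6. Gata2+/f replicate 7 stood far above the rest, and Gata2+/f replicate 9 lay within the Gata2+/+ range. The log2 fold change was 1.95 (95% interval 0.06 to 3.84; SE 0.81; edgeR adjusted p = 0.214; DESeq2 adjusted p = 0.0696), and 0.91 without Gata2+/f replicate 7.

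**Figure D2:**
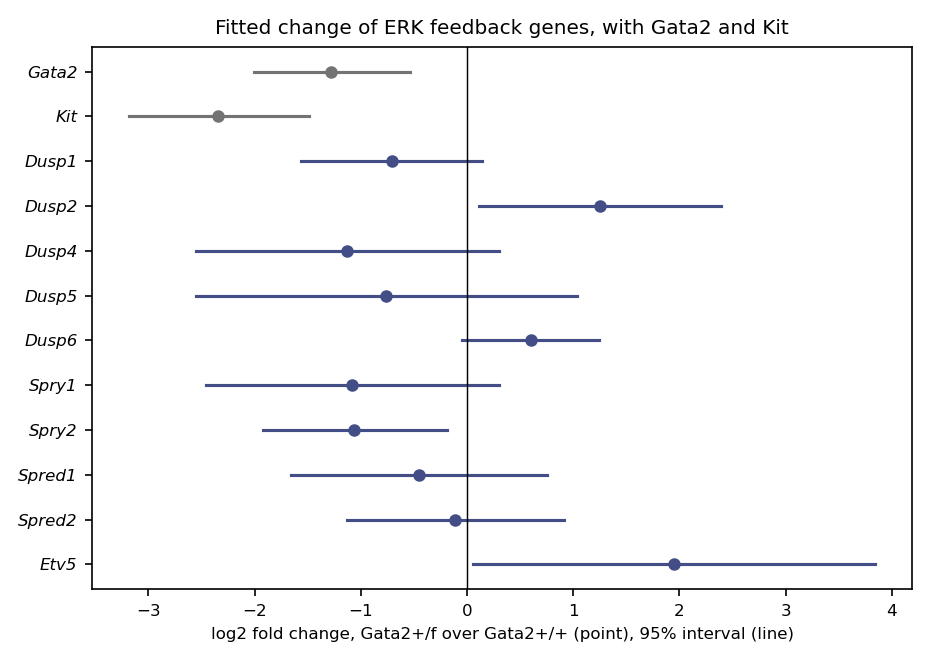
Log2 fold change of Gata2+/f over Gata2+/+ (point) with its 95% interval (line) from edgeR's fit of all 6 libraries, for Gata2, Kit and the 10 members. The intervals of Dusp2, Etv5 and Spry2 leave out 0 before any adjustment, and those of the other 7 members include it.

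Per kb of merged exons, the order of the members differed between the groups below the first place. Dusp1 was at 114 ± 48.1 CPM per kb in Gata2+/f and 187 ± 24.6 CPM per kb in Gata2+/+ (SD, n = 3 each), and its libraries lay above every other member's in both groups. In Gata2+/f the next were Dusp2 (15.1 ± 8.44 CPM per kb) and Dusp6 (11.1 ± 2.82), which overlapped, and Dusp6 lay above Spred1 (5.56 ± 3.40) in every library. From Spred1 down through Spry2, Spred2, Etv5, Spry1 and Dusp5 (2.27 ± 0.997), each neighbour overlapped the next, and Dusp4 (0.388 ± 0.211) was lowest. In Gata2+/+ Spry2 came second (9.39 ± 2.90 CPM per kb), before Spred1, Dusp6, Dusp2, Spry1, Spred2 and Dusp5 (3.83 ± 4.04), and each of these overlapped its neighbour. Dusp4 (0.847 ± 0.343) and Etv5 (0.799 ± 0.465) were the lowest there.

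The members did not vary as a block across the libraries. In Gata2+/f replicate 7, Dusp1, Dusp4, Dusp5 and Spry1 lay between -1.97 and -0.96 in log2 CPM relative to the gene's own mean. In that library Etv5 was at 2.35, Spred2 at 0.74 and Dusp6 at 0.49. In Gata2+/+ replicate 3, Dusp5 was at 1.84, Spry1 at 0.89, Dusp1 at 0.47 and Etv5 at -2.03, while Dusp4 (0.08) and Spred2 (0.06) lay near their means. Gata2+/f replicate 11 stayed between -0.67 and 0.73 for all 10 members.

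**Figure D3:**
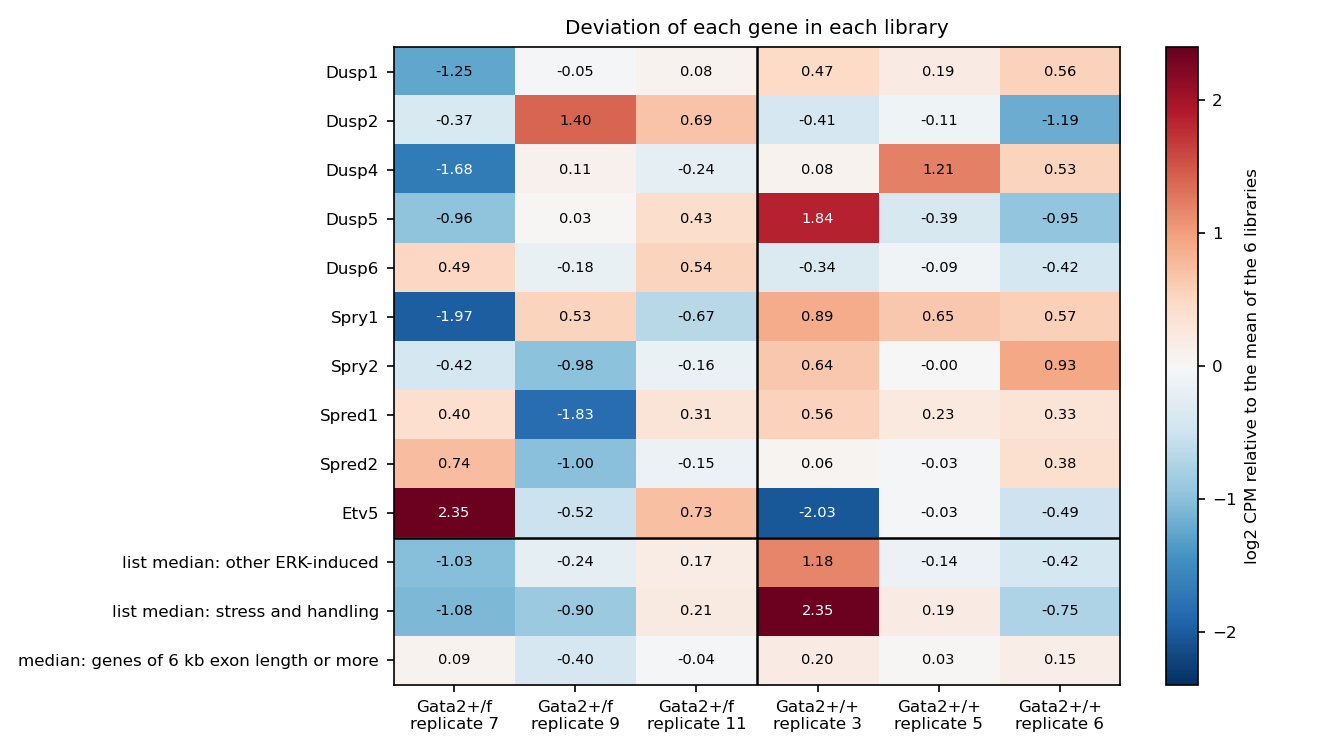
Log2 CPM of each member in each library relative to its mean over the 6 libraries (red higher, blue lower), Gata2+/f on the left, with the medians of 2 gene lists and of genes of 6 kb or more in the lower rows. Etv5 runs opposite to Dusp1, Dusp5 and Spry1 in Gata2+/f replicate 7 and Gata2+/+ replicate 3, and Spred1 is at -1.83 in Gata2+/f replicate 9.

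Genes of the stress and handling response, which the sorting and thawing of cells can induce, differed widely between libraries. All 10 had negative log2 fold changes (median -1.90), with 0 called by edgeR, 4 lower in DESeq2 (beside 6.09% of genes), and 5 at an unadjusted p under 0.05 (beside 11.5%). The list median was 2.35 in Gata2+/+ replicate 3, the library with the highest Dusp5, and -0.75 to 0.19 in the other 2 Gata2+/+ libraries. In Gata2+/f replicates 7, 9 and 11 it was -1.08, -0.90 and 0.21, on the same relative log2 scale. Junb had 119, 193 and 249 CPM in Gata2+/f replicates 7, 9 and 11, against 1399, 930 and 556 CPM in Gata2+/+ replicates 3, 5 and 6 (log2 fold change -2.36, SE 0.43; edgeR adjusted p = 0.0955). Jun (-1.79), Dnajb1 (-2.36) and Fosb (-2.46) were the next by p. Without Gata2+/+ replicate 3 the log2 fold changes were -1.94 for Junb, -1.16 for Jun, -0.55 for Dnajb1 and -0.73 for Fosb. The part of this response in the Dusp1 and Dusp5 values was not tested.

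Most other ERK-induced genes had lower fitted levels in Gata2+/f, and a few had higher ones. Of 18, 17 were tested, 4 had positive and 13 negative log2 fold changes (median -1.01), and 0 were called by edgeR. Over all genes tested, 48.9% had negative ones. At an unadjusted p under 0.05 by edgeR there were 2 higher genes (beside 11.1% of all genes) and 5 lower ones (beside 11.5%). The list median was -1.03, -0.24 and 0.17 in Gata2+/f replicates 7, 9 and 11, against 1.18, -0.14 and -0.42 in Gata2+/+ replicates 3, 5 and 6, on the relative log2 scale. Of the Gata2+/+ libraries, replicate 3 thus lay above the Gata2+/f range and the others within it. Gata2+/+ replicate 3 was also the highest library for the stress and handling list, with a median of 2.35. The part of handling in the ERK-induced list was not tested. The early response factor Egr1 had 188, 200 and 277 CPM in Gata2+/f replicates 7, 9 and 11, against 3692, 1362 and 388 CPM in Gata2+/+ replicates 3, 5 and 6 (log2 fold change -3.03, SE 0.75; edgeR adjusted p = 0.108; DESeq2 adjusted p = 0.000837). The G1 cyclin gene Ccnd1 lay on the other side. It had 7.05 ± 3.61 CPM in Gata2+/f and 1.98 ± 0.316 CPM in Gata2+/+ (SD, n = 3 each; log2 fold change 1.83; edgeR adjusted p = 0.131; DESeq2 adjusted p = 0.00732). Myc (1.0) was higher in each Gata2+/f library, but only just. Its nearest pair was 81.6 CPM in Gata2+/f replicate 11 and 81.1 CPM in Gata2+/+ replicate 3. Ier2 (-1.58) overlapped. Without Gata2+/+ replicate 3 the log2 fold change was -1.95 for Egr1 and -0.69 for Ier2. DESeq2 called 2 of these genes, Egr1 lower (beside 6.09% of all genes) and Ccnd1 higher (beside 6.58%). Etv4, a relative of Etv5 in the list, was under the filter at 7 to 16 counts in Gata2+/f and 1 to 9 counts in Gata2+/+.

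The kinases and adaptors of the cascade had fold changes on both sides of 0. In the list from RAS to ERK, 13 of 24 genes had positive and 11 negative log2 fold changes (median 0.05), and 0 were called by edgeR. The 4 with the smallest p were Rasgrp3, Sos2, Ksr1 and Gab2. Rasgrp3, a RAS activator, had 1.78 ± 1.48 CPM in Gata2+/f and 0.265 ± 0.0697 CPM in Gata2+/+ (SD, n = 3 each). Its log2 fold change was 2.74 (edgeR adjusted p = 0.121), and 1.85 without Gata2+/f replicate 11. It held only 16, 17 and 12 counts in Gata2+/+ replicates 3, 5 and 6. Of the 24 genes it was the 1 that DESeq2 called (DESeq2 adjusted p = 0.00522), beside 6.58% of all genes called higher. Sos2, another RAS activator (-0.86), Ksr1, a scaffold that holds RAF and MEK together (-1.43), and Gab2, a docking protein downstream of Kit (-0.90), had lower means in Gata2+/f.

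Upstream of RAS, the growth factor receptors were split. Kit, the receptor used for the sort, had 193, 175 and 328 CPM in Gata2+/f replicates 7, 9 and 11, against 826, 1222 and 1466 CPM in Gata2+/+ replicates 3, 5 and 6 (log2 fold change -2.34, SE 0.36; edgeR adjusted p = 0.0955; DESeq2 adjusted p = 2.19e-06). Flt3 had 59.9 ± 23.4 CPM in Gata2+/f and 23.7 ± 1.62 CPM in Gata2+/+ (SD, n = 3 each; log2 fold change 1.34; edgeR adjusted p = 0.0991). Igf1r (-0.92) and Pdgfrb (-1.75) had lower means in Gata2+/f. Of the 12 receptors, 6 had positive and 6 negative log2 fold changes, and 0 were called by edgeR. DESeq2 called 3 higher (beside 6.58% of all genes) and 4 lower (beside 6.09%). The groups did not overlap for 4 higher receptors (beside 13.1% of all genes) and 5 lower ones (beside 16.6%). Kit and Csf1r are also among the progenitor and monocyte markers above, and the part of cell makeup in the receptor values was not tested.

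Other brakes on the pathway gave no common direction either. Among the other dual specificity phosphatases, 7 of 8 were tested, 3 with positive and 4 with negative log2 fold changes. Of these 0 were called by either edgeR (0% of all genes) or DESeq2 (12.7% of all genes), which gave no adjusted p for Dusp8. Dusp10, a phosphatase of JNK and p38, had 2.48 to 8.34 CPM in Gata2+/f and 5.99 to 51.7 CPM in Gata2+/+ (log2 fold change -1.89; edgeR adjusted p = 0.233). Without Gata2+/+ replicate 3, its highest library, the value was -0.42. Dusp22 (1.41), Dusp8 (-1.78) and Dusp3 (-0.72) overlapped too. The value of Dusp22 was 0.58 without Gata2+/f replicate 11, and Dusp8, like Dusp5, was highest in Gata2+/+ replicate 3 (37.2 CPM), without which its log2 fold change was 1.12. Of 14 further brakes, 11 were tested, 4 with positive and 7 with negative log2 fold changes, and 0 were called by edgeR. DESeq2 called 1 of the 11 lower, beside 6.09% of all genes. This was Lrig1, which promotes the breakdown of receptor tyrosine kinases (log2 fold change -2.64, DESeq2 adjusted p = 0.0231). Its values were 2.77, 1.17 and 6.53 CPM in Gata2+/f replicates 7, 9 and 11, against 30.9, 30.8 and 3.64 CPM in Gata2+/+ replicates 3, 5 and 6. The next by p were Rasal1 (1.59), Pebp1 (0.40) and Pea15a (-0.83). The remaining Sprouty genes were under the filter, with 5 to 14 counts for Spry4 in Gata2+/f and 1 to 11 in Gata2+/+, and at most 1 count for Spry3 in any library.

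**Figure D4:**
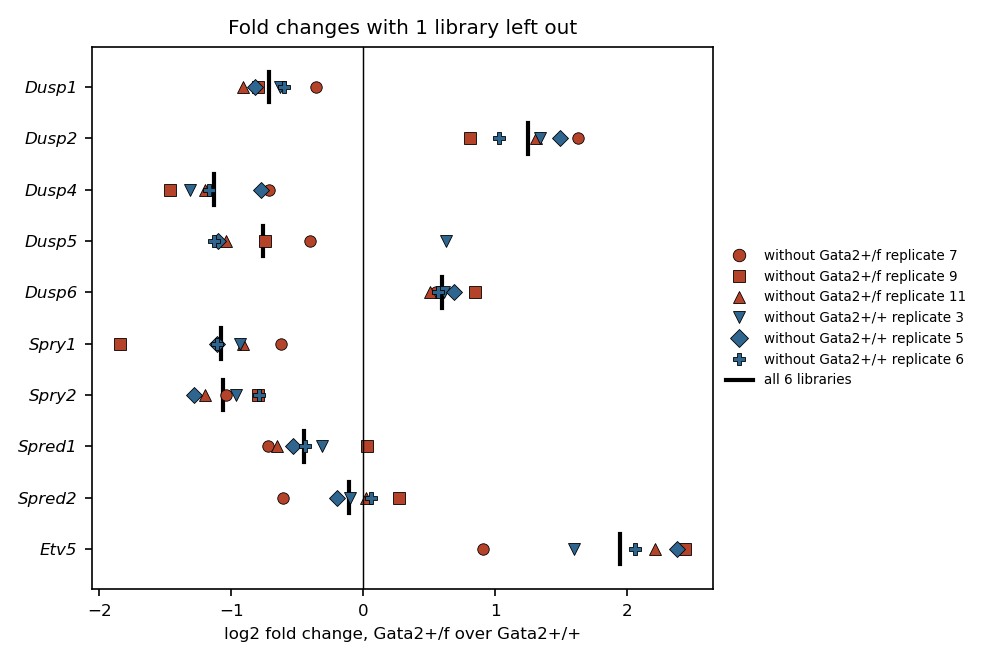
Log2 fold change of Gata2+/f over Gata2+/+ for each member with all 6 libraries (black bar) and with 1 library left out (symbols, red for a Gata2+/f and blue for a Gata2+/+ library). Dusp1, Dusp2, Dusp4, Dusp6, Spry1, Spry2 and Etv5 stay on one side of 0 in all 6 refits, and Dusp5, Spred1 and Spred2 cross it.

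Leaving out 1 library at a time kept the sign of 7 members, and the other 3 turned. Without Gata2+/f replicate 9 the groups did not overlap for 6 members, beside 40.4% of all genes, since Dusp4, Dusp6 and Etv5 then joined Dusp1, Spry1 and Spry2. Without Gata2+/+ replicate 5 it was 5 members, beside 43.8%, and without Gata2+/f replicate 11 it was 2, beside 43.9%. It was 4 without Gata2+/f replicate 7 (40.4% of all genes), 3 without Gata2+/+ replicate 3 (35.5%) and 3 without Gata2+/+ replicate 6 (38%). Without both Gata2+/f replicate 9 and Gata2+/+ replicate 3, a choice made after seeing the data, it was 7 members, beside 48.3%, and still 0 were called by edgeR.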

How the data were processed

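The authors deposited unnormalized expected counts from RSEM for each Ensembl gene and library. Tools listed in the submitters' processing notes are RSEM 1.3.0, STAR 2.5.4a and CASAVA 1.8.2, with the build GRCm38. The annotation release and strand setting are not given in the sources used here. Per the labels' protocols, libraries were poly-A selected and stranded. Symbols and positions came from GENCODE M21 (97.5% of IDs matched), and exon lengths are merged exons. Counts were rounded (11.7% of values were not whole). A library held 53789568 to 67854631 counts, so that 3 counts make 0.0424 to 0.06 CPM, and no library duplicated another.

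Genes were kept by filterByExpr (minimum count 10), scaled by TMM and tested with edgeR 4.0.16 (glmQLFit and glmQLFTest, two-sided, R 4.3.3), with Benjamini-Hochberg adjustment over 15432 genes and a threshold of 0.05. Intervals (95%) use that model's degrees of freedom. DESeq2 1.42.0, limma 3.58.1 voom, other scalings, other filters and leaving out libraries were the alternatives. The tests were tested on simulated data. Log2 CPM used a prior count of 2. Named are the members, Gata2, Kit and the 4 genes of each pathway list with the smallest p. For each member, the gene most like it over the libraries is also named. Ergic1, Spry3, Spry4, Etv4, Tpsb2, Itga2b, Pecam1, Cd34, Mpo, Elane, Prtn3, Ctsg and Csf1r were named after their values were seen. Members and lists were chosen with earlier results of these data known.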

Additional observations from a re-analysis of the deposited data

How the results depend on the processing

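No paired analysis was possible because the groups share no replicate numbers. No member was called under any alternative; the smallest adjusted p was 0.0674 (Spry2, DESeq2). Over all genes the count was 0 with edgeR, 1829 with DESeq2, 32 with the newer form of edgeR's test, 9 with limma voom, 19 with no filter beyond 1 count, and 0 to 66 with 1 library left out (66 without Gata2+/f replicate 11). Of the pathway genes DESeq2 called 15 (5 higher and 10 lower), against 0 with edgeR. The lists behind this count had 7, 11, 24, 17, 12 and 10 tested genes. Over all genes DESeq2 called 12.7% (6.58% higher, 6.09% lower). The 12 receptors alone gave 3 of the higher and 4 of the lower genes, so the count is not read as a property of the pathway. The number of members whose groups do not overlap was 3, 2 to 6 with 1 library left out, and 7 without both Gata2+/f replicate 9 and Gata2+/+ replicate 3, a setting added after seeing the data. It was 2 with upper quartile factors or a filter of 1 CPM in 3 libraries, where Spry1 overlapped. Spry1 also overlapped without Gata2+/f replicate 7, Gata2+/f replicate 11 or Gata2+/+ replicate 3.

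Of 488 recomputed fold changes of 35 named genes, 464 kept their sign and side of the threshold, 13 passed it with DESeq2, and 11 turned. With 1 library left out, the log2 fold change of Dusp5 ran from -1.13 to 0.63, of Spred1 from -0.72 to 0.03, of Spred2 from -0.61 to 0.27 and of Dusp8 from -3.04 to 1.12. Without both libraries it was 0.59, 0.13, 0.22 and 1.60 for these 4, and 0.04 for Dusp3. The cause was not tested. Dusp4, at 30 to 197 counts a library, had the lowest mean CPM of the members in both groups. Its SE (0.61) was below those of Dusp5 (0.77) and Etv5 (0.81), and the part of depth in these was not tested.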

Other observations

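The ratio of Dusp6 to Spry2 within a library, which no scaling between libraries can change, was chosen after its values were seen. It was 3.96, 3.67 and 3.44 in Gata2+/f replicates 7, 9 and 11, against 1.07, 1.98 and 0.824 in Gata2+/+ replicates 3, 5 and 6. The 3 Gata2+/f values lay close together, and all were above the Gata2+/+ values. Dusp6 and Spry2 were also the members with the smallest SDs of log2 CPM within Gata2+/f (0.4 and 0.42). Dividing a member with a higher mean in Gata2+/f by one with a lower mean favours such a separation. The share of other gene pairs that separate was not computed, so the ratio is a description only. The ratio of Etv5 to Spry2 did not overlap either, at 2.64, 0.531 and 0.717 in Gata2+/f and 0.0595, 0.379 and 0.144 in Gata2+/+. Nor did the ratio of Dusp6 to Dusp1, at 0.199, 0.0546 and 0.0826 in Gata2+/f and 0.0341, 0.0491 and 0.0301 in Gata2+/+. Ratios of Spred2 to Spred1 (0.361 to 0.885 in Gata2+/f, 0.351 to 0.516 in Gata2+/+) and of Spry2 to Spry1 (0.505 to 4.27 in Gata2+/f, 0.922 to 1.85 in Gata2+/+) overlapped.

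Over the 6 libraries, the gene most like Spry2 in log2 CPM was Rnf169 (Pearson's r 0.9964), and the gene most like Dusp6 was P2ry10b (0.9905). For Spred1 it was Ctdspl2 (0.9981), for Spry1 Galnt6 (0.9975), for Dusp1 Cers5 (0.9965) and for Dusp5 Rmc1 (0.987). Dusp2 was most like Creld2 (0.9947), Dusp4 most like Numbl (0.9978), Spred2 most like Ate1 (0.9954) and Etv5 most like Tmc8 (0.9954). Each is the best of 15422 genes over 6 points that share their libraries and groups, and between 71 and 587 genes had an r above 0.9 with a given member.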
